A study of Mus musculus with 9 samples.

Results

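Mitochondrial ribosomal proteins are encoded in the nucleus, made in the cytosol and imported into mitochondria, where they build the ribosome of that organelle. Their mRNAs were followed here through an immunoprecipitation of phosphorylated UPF1 (p-UPF1) from activated mouse B cells. Members were taken by name, as every identifier of the deposited count table whose mouse gene symbol starts with Mrpl or Mrps and a digit. The list was chosen with earlier results of these data known. The rule found 78 genes among 27179 identifiers, of which 51 encode proteins of the large subunit and 26 proteins of the small subunit. The remaining one, Mrps36, carries a ribosomal name, although its protein is known as a component of the 2-oxoglutarate dehydrogenase complex. A pair of names points to the wrong subunit, since the proteins of Mrps18a and Mrps30 sit in the large subunit, and both were counted there.

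The mitochondrial ribosome translates the few mRNAs of the mitochondrial genome, which encode core subunits of the respiratory chain. Its proteins fall into those with a bacterial counterpart, which mostly contact ribosomal RNA, and those found only in mitochondria, which cover the surface and take the place of lost RNA. UPF1 is an RNA helicase of nonsense-mediated mRNA decay (NMD). It binds mRNA in the cytosol, is displaced from coding sequence by translating ribosomes, and is phosphorylated where translation ends in a context that marks the mRNA for decay, such as a stop codon upstream of an exon junction or a long 3′ UTR.

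All cells came from the spleens of wild-type mice, were isolated as CD43- B cells, and were activated for 72 h. As the labels give it, the stimuli were CD40L at 5 ug/mL, anti-IgM antibody at 10 ug/mL and IL-4 at 20 ng/mL, while the methods text has an anti-CD40 antibody in place of the ligand. The labels give no strain, sex or age. The study's general methods describe age-matched animals of both sexes, 8 to 16 weeks of age, without naming a strain for the wild-type mice of this experiment. RNA was sequenced from the lysate (input), from a precipitate with normal rabbit IgG and from a precipitate with anti-p-UPF1, with 3 libraries each. No sample lacked UPF1 or its phosphorylation, so IgG and input are the only backgrounds, and the same p-UPF1 libraries enter both comparisons. Nothing in the labels says whether the libraries of a group came from separate mice or cultures, so p-values measure the spread between these libraries, which may be technical.

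Library totals ran from 17372510 to 24945286 reads. The 7 B cell markers summed to 7385 to 7511 CPM (read counts scaled to library size) in input, against 0.590 to 0.906 CPM for 5 T cell markers, 21.5 to 24.9 CPM for 3 plasma cell markers (most of it Prdm1), at most 0.160 CPM for 2 NK cell markers and 0 for 3 erythroid markers. Of 4 myeloid markers, Adgre1 stood at 124 to 137 CPM, while Lyz2, Itgam and Csf1r were each at 0.401 CPM or below. The part of Adgre1-expressing cells in the results was not tested. CPM values below are scaled with edgeR's TMM factors, and differences are log2 fold changes of the quasi-likelihood test in edgeR, with Benjamini-Hochberg adjustment over 13129 genes. A gene was called at an adjusted P under 0.05.

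Reads of the 78 genes made up 0.183% ± 0.00369 of the p-UPF1 libraries, against 0.270% ± 0.00727 with IgG and 0.319% ± 0.00297 in the lysate (SD, n = 3). The mRNAs of the mitochondrial ribosome thus took a smaller share of the p-UPF1 precipitate than of either background, yet the family did not move as a block. Of the 77 genes tested, 65 were lower and 10 higher in p-UPF1 than in IgG, where 42.2% of all genes tested were called lower and 40.4% higher. Against input, 68 were lower and 8 higher, with a background of 42.6% lower and 40.8% higher. The 3 p-UPF1 libraries lay below all IgG libraries in 64 members and above them in 10 (41.5% and 40.6% of all genes). They lay below all IgG and input libraries in 64 and above them in 9 (37.6% and 37% of all genes). The median log2 fold change over IgG was -1.39 in members and -0.03 over all genes, and over input it was -1.84 and -0.03. These directions are relative to the typical mRNA of a library. When libraries were instead scaled to equal mitochondrially encoded mRNA, all 77 members were higher in p-UPF1 than in IgG. So were 13051 of the 13129 genes. The members' median was then 3.30 and the all-gene median 4.66. Scaling shifts all genes of a library alike, so it could not change the order of these medians.

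**Figure D1:**
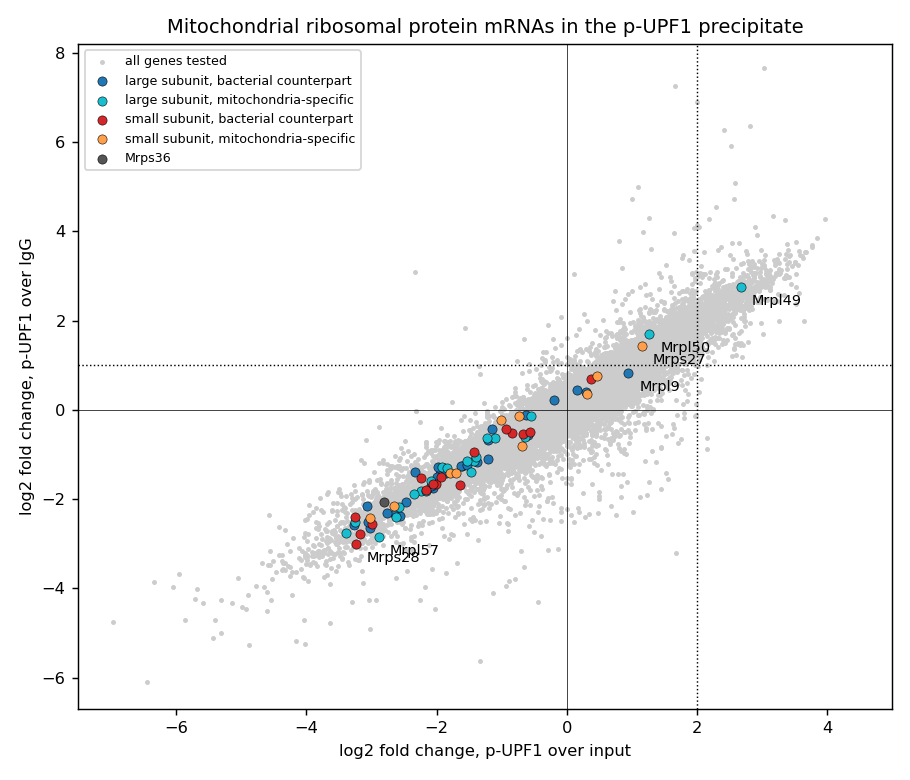
Log2 fold change of p-UPF1 over input (x axis) and over IgG (y axis), with 1 point per gene, all 13129 genes tested in grey and the 77 members coloured by subunit and origin; dotted lines mark the minima of 2 over input and 1 over IgG. Both axes share the p-UPF1 libraries. Most members lie at the lower left, with medians of -1.84 and -1.39 (both become positive under scaling to mitochondrially encoded mRNA), and Mrpl49 is the only member past both lines.

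The study's methods call an RNA p-UPF1-bound when its log2 value is 1 or more against IgG and 2 or more against input, both at an adjusted P under 0.05. Mrpl49 met both criteria, alone among the 77 members, where 820 of all genes tested (6.25%) did. Over IgG, 3 members reached a log2 fold change of 1, whereas 51 lay at -1 or below and 20 at -2 or below, against 22.546%, 22.188% and 6.512% of all genes. Both comparisons rest on the same p-UPF1 libraries, so their calls are not independent. A few genes took different calls in them. Mrpl10 was higher than IgG (0.21) but lower than input (-0.20), and Mrpl47 was higher than IgG (0.45) and not called over input (0.16), where it gained a higher call in 4 of 20 alternative settings other than the mitochondrial scaling (0.15 to 0.29). Mrpl17 and Mrps34 were not called over IgG (-0.12 and -0.13) and were lower than input (-0.63 and -0.73), and both gained a lower call over IgG with library size alone (-0.28 and -0.29), with upper-quartile factors, with an input library as the TMM reference or without IgG library A.

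The last 30 coding bases of the 4 members highest and the 4 lowest over IgG are printed here because UPF1 acts where ribosomes stop. They are given 5′ to 3′ with the stop codon in capitals, as read from the GRCm38 genome at the representative RefSeq transcript of each gene. The first 4 are the highest. They lie at chr19:6054836-6054865 (minus strand), chr4:49514190-49514219 (minus), chr13:99414949-99414978 (plus) and chr3:94447891-94447920 (plus). The other 4 are the lowest, at chr14:54429699-54429728 (plus), chr5:100804379-100804408 (plus), chr14:57826796-57826825 (plus) and chr3:8802246-8802275 (minus).
Mrpl49: aaagcctggcttcttgagaaaggcttcTGA
Mrpl50: cccaatttgaaaatcagttggagttacTGA
Mrps27: gcgctgagtgcggcagagaaagcagccTGA
Mrpl9: gtggcccccaccaacccccaggctgtcTGA
Mrpl52: ttactgagaagcccacttccgaatcaaTAA
Mrps18c: agagtttgtaacatcagataccgagaaTAA
Mrpl57: catctcaacatctcgaagaaatggtccTAA
Mrps28: aaatcaagagaggagcaacccagcaagTAA
The 4 highest end in TGA and the 4 lowest in TAA. Across the 77 members the stop codons differed less in recovery, with a median log2 fold change over IgG of -1.51 for the 20 genes with TAA, -1.27 for the 15 with TAG and -1.35 for the 42 with TGA. Over all genes tested these medians were -0.19, 0.05 and 0.10. TGA members ran from -2.65 to 2.76 and TAA members from -3.01 to 0.45.

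The 2 most enriched members both encode mitochondria-specific proteins of the large subunit. Mrpl49 (gene 18120, chromosome 19, 6053630 to 6057755) was at 50.6, 53.9 and 51.7 CPM in the 3 input libraries, 53.3, 43.9 and 49.3 with IgG and 323, 337 and 334 with the p-UPF1 antibody. Input and IgG overlapped, and every p-UPF1 library lay far above them. Against IgG the log2 fold change was 2.76 ± 0.06 (SE), with an adjusted P of 1.5e-16, and against input it was 2.67 ± 0.06, with one of 1.52e-16, in the quasi-likelihood test of edgeR. This single mRNA held 17.2% ± 0.447 of all member reads in p-UPF1 libraries, against 1.93% ± 0.181 with IgG and 1.60% ± 0.0283 before precipitation (SD, n = 3).

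Mrpl50 (gene 28028, chromosome 4, 49512597 to 49521083) was at 44.6, 45.5 and 43.6 CPM in the lysate, 33.6, 31.9 and 33.8 with IgG and 106, 110.0 and 106 with anti-p-UPF1. The 3 groups did not overlap, with IgG lowest and p-UPF1 highest. Against IgG the log2 fold change was 1.70 ± 0.05 (SE, adjusted P 6.44e-15), but against input it was 1.27 ± 0.05 (adjusted P 1.43e-13), under the minimum of 2.

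Mrps27, a pentatricopeptide repeat protein of the small subunit, and Mrpl9, a large subunit protein with a bacterial counterpart, followed. Mrps27 was at 36.3, 36.9 and 38.3 CPM in the lysate, 32.7, 27.8 and 32.2 with IgG and 85.01, 86.4 and 77.1 with anti-p-UPF1. Against IgG this was a log2 fold change of 1.42, and against input one of 1.16. Mrpl9 was the most abundant member in input by CPM, at 118, 119 and 114, with 124, 132 and 124 after IgG and 224, 232 and 219 after p-UPF1 precipitation. Its log2 fold change was 0.83 against IgG, and 0.95 against input. In both genes every p-UPF1 library lay above all others. Mrpl49, Mrpl50, Mrps27 and Mrpl9 together held 7.72% ± 0.0246 (SD, n = 3) of the lysate's member reads and 38.8% ± 0.404 of those precipitated with p-UPF1. All remaining members took 0.295% ± 0.00276 of input reads and 0.112% ± 0.00241 of p-UPF1 reads (SD, n = 3).

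**Figure D2:**
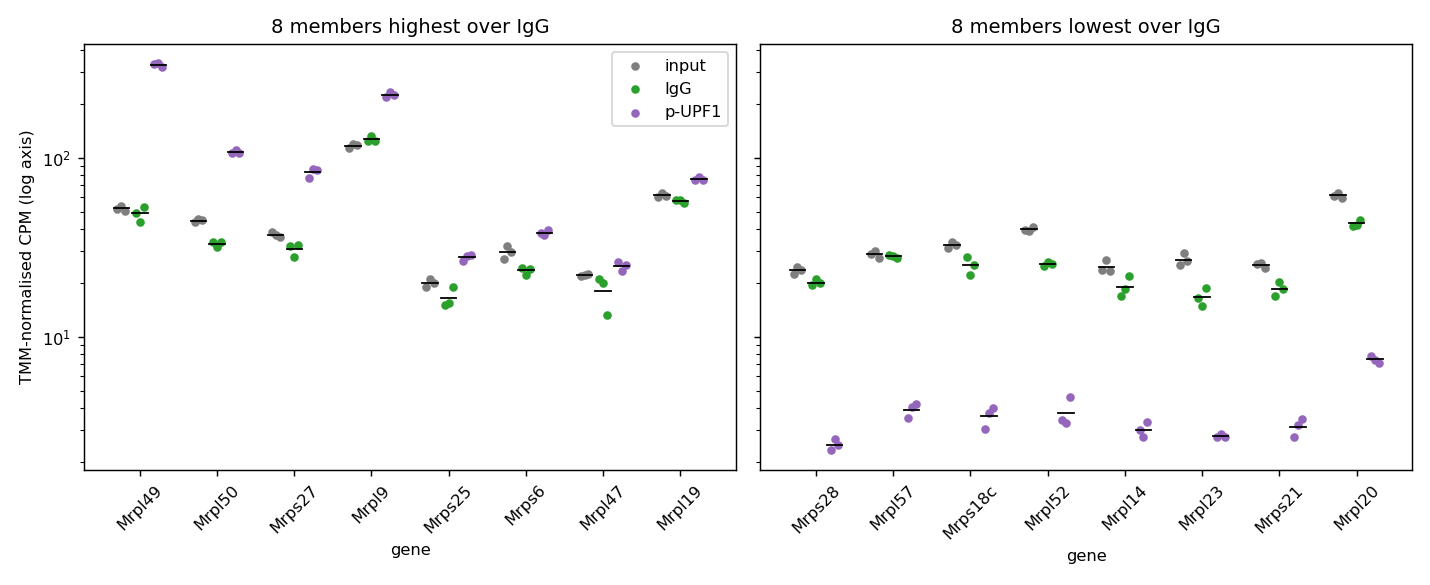
TMM-normalised CPM (log axis) of the 8 members highest and the 8 lowest in log2 fold change over IgG, with 1 point per library, 3 libraries per group, and a black line at each group mean. For each gene the p-UPF1 points lie above all input and IgG points in the left panel and below all of them in the right panel; Mrpl49 is at 323 to 337 CPM and Mrps28 at 2.31 to 2.66 CPM in p-UPF1.

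Smaller rises over IgG were called for 6 further members. They were Mrps25 (log2 fold change 0.76), Mrps6 (0.70), Mrpl47 (0.45), Mrpl19 (0.41), Mrps23 (0.36) and Mrpl10 (0.21). Mrps25 and Mrps23 encode mitochondria-specific proteins of the small subunit, while Mrps6, Mrpl47, Mrpl19 and Mrpl10 encode proteins with bacterial counterparts. Mrps25 was at 20.1, 21.1 and 19.00 CPM in the lysate, 18.9, 15.4 and 15.03 with IgG and 28.5, 28.1 and 26.7 with anti-p-UPF1, and Mrps6 at 23.9, 22.2 and 24.3 CPM with IgG and 39.3, 37.1 and 38.1 with anti-p-UPF1. In both genes every p-UPF1 library lay above all others. Mrpl47 rested on IgG libraries that spread widely, at 13.2, 19.9 and 21.1 CPM, next to 25.02, 23.2 and 26.2 CPM in p-UPF1. The lowest IgG library, at 13.2 CPM, stood apart from the other two, and without it the log2 fold change of Mrpl47 over IgG was 0.27 in place of 0.45. In input all 3 values lay between 21.9 and 22.4 CPM.

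**Figure D3:**
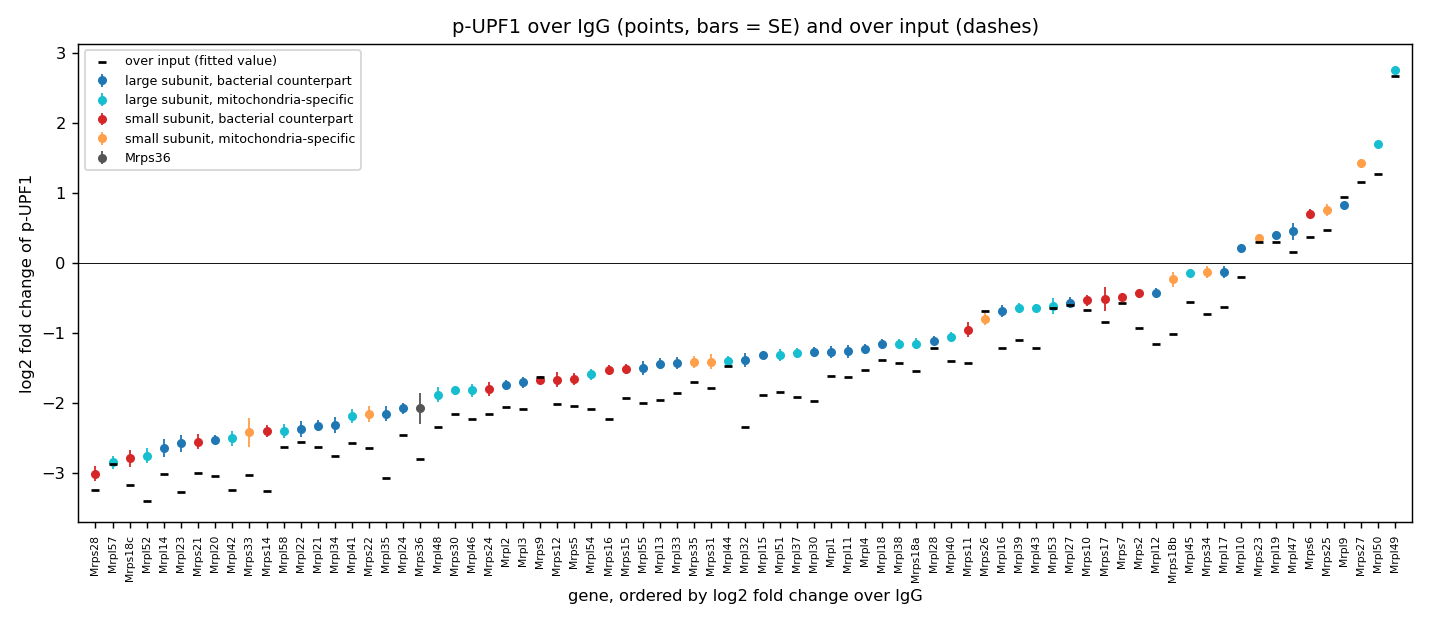
Log2 fold change of p-UPF1 over IgG for the 77 members tested (points with bars of 1 SE, coloured by subunit and origin), in ascending order, with the fitted value over input as a black dash. The scale runs from -3.01 for Mrps28 to 2.76 for Mrpl49, and 10 genes lie above 0 and were called higher; scaling to mitochondrially encoded mRNA puts every member above 0.

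At the other end the 8 members lowest over IgG lay between -3.01 and -2.52 on the log2 scale. Mrps28, which encodes a protein of the small subunit, was at 23.5, 24.6 and 22.5 CPM in the lysate, 19.9, 20.9 and 19.3 with IgG and 2.49, 2.66 and 2.31 with anti-p-UPF1. The p-UPF1 libraries held 8.05 times less than IgG, with a log2 fold change of -3.01 (SE 0.10, adjusted P 6.75e-14 in the quasi-likelihood test of edgeR). Mrpl57, mitochondria-specific and in the large subunit, was at 27.6, 30.2 and 28.8 CPM in the lysate, 27.5, 28.4 and 28.7 with IgG and 4.21, 4.02 and 3.49 with anti-p-UPF1. Its input and IgG values overlapped, and the log2 fold changes against them were -2.88 and -2.85. Mrps18c, with -2.79 over IgG, and Mrpl52, with -2.75, came next. Mrpl14 (-2.65), Mrpl23 (-2.57), Mrps21 (-2.55) and Mrpl20 (-2.52) all encode proteins with bacterial counterparts. These 8 were picked for their low values, and in each every p-UPF1 library lay below every IgG and input library.

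By origin and subunit the groups overlapped widely, and their counts stand against 42.2% lower and 40.4% higher among all genes tested. The large subunit proteins with a bacterial counterpart had a median log2 fold change over IgG of -1.31, with 24 of 29 tested lower and 4 higher, and the mitochondria-specific ones had the same median, with 19 of 21 lower and 2 higher. In the small subunit, 15 of 16 proteins with a bacterial counterpart were lower and 1 was higher, with a median of -1.59. Its mitochondria-specific proteins had the highest median, -0.52, with 6 of 10 lower and 3 higher. These 10 ranged from -2.42 to 1.42, and no test compares the groups.

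Mrps12, the decoding-site protein, was at 21.5, 20.1 and 20.99 CPM in the lysate, 18.3, 14.95 and 16.01 with IgG and 5.06, 5.60 and 4.85 with anti-p-UPF1, a log2 fold change of -1.67 over IgG. Mrpl2 and Mrpl3, which lie close to the peptidyl transferase centre, gave -1.74 and -1.71 over IgG. Mrpl58, a peptidyl-tRNA hydrolase that can release stalled chains, was at 18.9, 18.8 and 17.9 CPM in IgG and 3.45, 3.70 and 3.35 in p-UPF1, a log2 fold change of -2.40. In each of these 4 genes, chosen by role from among the members, no p-UPF1 library reached an IgG library, as in 41.5% of all genes tested.

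The stalk that recruits translation factors consists of Mrpl10 at its base and copies of Mrpl12. Their mRNAs took opposite calls over IgG. Mrpl10 was at 71.5, 72.6 and 74.1 CPM in the lysate, 55.2, 51.3 and 57.8 with IgG and 62.7, 68.03 and 59.6 with anti-p-UPF1, so that p-UPF1 lay between the 2 backgrounds. The log2 fold change of 0.21 over IgG had an adjusted P of 0.00334, and that of -0.20 over input one of 0.00462, in the quasi-likelihood test of edgeR, and the call over IgG was lost with library size alone (0.05), upper-quartile factors (0.08) or an input library as the TMM reference (0.13). The call over input was lost with an IgG library as the reference (-0.081) or without a low-count filter (-0.064). Mrpl12 was at 25.3, 27.8 and 23.4 CPM in IgG and 18.6, 19.1 and 19.2 after p-UPF1 precipitation, which gave log2 fold changes of -0.43 and, against input, -1.15.

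The 3 Mrps18 paralogs, which descend from a common bacterial protein and occupy different sites, were recovered differently. Mrps18c, which holds the bacterial position in the small subunit, was at 32.7, 33.6 and 31.3 CPM in the lysate, 25.03, 22.05 and 27.96 with IgG and 4.002, 3.75 and 3.04 with anti-p-UPF1. Mrps18a, in the large subunit, was at 35.3, 31.8 and 30.2 CPM with IgG and 15.3, 13.9 and 14.6 with anti-p-UPF1. Mrps18b, mitochondria-specific in the small subunit, was at 9.99, 9.80 and 8.47 CPM with IgG and 8.34, 7.81 and 7.84 with anti-p-UPF1. All p-UPF1 libraries lay below the IgG libraries in the 3 genes, but by unequal amounts. The log2 fold changes over IgG were -2.79 (SE 0.12), -1.15 (SE 0.08) and -0.23 (SE 0.10), and that of Mrps18b was close to the threshold (adjusted P 0.0436) and was not called in 16 of 20 alternative settings, with the mitochondrial scaling left aside. Mrps30, the other member with a small subunit name in the large subunit, gave -1.82 over IgG, and Mrps36 gave -2.08 (SE 0.22) at 1.53 to 1.81 CPM in p-UPF1. Mrpl36, a protein of the large subunit with a bacterial counterpart, had 1 to 2 reads per input library, 0 to 8 per IgG library and 0 to 2 per p-UPF1 library and was not tested.

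Per kilobase of annotated exon, input levels of the 77 members ran from 2.91 CPM for Mrps17 to 96.6 CPM for Mrpl52, with a median of 26.1. Genes high on this scale were found at both ends of the recovery range. Mrpl52 went from 61.9 CPM per kilobase in IgG to 9.13 in p-UPF1, and Mrpl9 from 71.0 to 126. By total CPM in input the most abundant members were Mrpl9, Mrps7, Mrps9, Mrpl45 and Mrpl15. Apart from Mrpl9 these were lower in p-UPF1 than in IgG, with log2 fold changes of -0.49 for Mrps7, -1.67 for Mrps9, -0.14 for Mrpl45 and -1.31 for Mrpl15. The groups of Mrpl45 overlapped, with 62.5, 61.3 and 55.6 CPM in IgG and 54.01, 55.8 and 52.6 in p-UPF1, and its call over IgG was lost in 6 of the same 20 settings.

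The IgG precipitate asks what beads and a nonspecific antibody recover. Members were lower there too, but by less. Of the 77, 61 were lower and 1 higher in IgG than in input, where 34.7% of all genes tested were lower and 18.2% higher. The median log2 fold change was -0.38 in members and -0.10 over all genes, and no member reached 1 in size, as 2.719% of all genes did below 0 and 2.293% above it. The lowest were Mrpl32 (-0.95), Mrpl35 (-0.92), Mrps14 (-0.85) and Mrps18b (-0.77). Mrpl32 was at 40.2, 44.1 and 40.6 CPM in the lysate, 18.97, 23.98 and 21.8 with IgG and 8.93, 8.35 and 7.39 with anti-p-UPF1, with no overlap between groups. Mrpl9 was the one called higher, at 0.11 (adjusted P 0.0346 in the quasi-likelihood test of edgeR), and this call was lost without p-UPF1 library B, IgG library B or any one of the input libraries. Mrps26 (0.11), Mrps9 (0.04) and Mrpl57 (-0.03) followed in the order from the top and were not called. With library size alone or with either TMM reference, Mrps9 and Mrps26 were called higher as well (0.16 and 0.23 with library size alone). Over 20 alternative settings other than the mitochondrial scaling, 53 to 64 members were lower in IgG than in input, and 8 members lost their lower call in at least one of them, most often Mrpl58 and Mrps28 (9 settings each), Mrps25 (7) and Mrpl18 (6). Scaled to equal mitochondrially encoded mRNA, 13 members (16.9%) were higher and 15 (19.5%) lower in IgG than in input, against 46.6% and 8.33% of all genes tested.

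Genes that work with the mitochondrial ribosome were called in both directions over IgG, as were all genes tested (42.2% lower, 40.4% higher, median -0.03). Of 5 further ribosomal proteins that carry other names, Ptcd3 was higher over IgG (0.45) and 4 were lower, namely Chchd1 (-1.79), the GTP-binding protein Dap3 (-0.99), Gadd45gip1 (-0.66) and Aurkaip1 (-0.44). Of 15 mitochondrial translation factors tested, 11 were lower and 4 higher, with a median of -0.33. Mtif3, the initiation factor that splits the ribosomal subunits, was at 15.7 ± 0.448 CPM with IgG and 80.2 ± 2.55 with anti-p-UPF1 (SD, n = 3) and met both criteria. Taco1, an activator of translation of a cytochrome oxidase mRNA, had log2 fold changes of 2.12 and, against input, 1.79. Slirp, an RNA-binding protein that keeps mitochondrial mRNAs stable, and the elongation factor Tufm were the lowest, at -3.23 and -1.46.

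Of 26 assembly factors, 16 (61.5%, against 42.2% of all genes) were lower and 9 higher than in IgG, with a median of -0.35, and 5 (19.2%, against 6.25%) met both criteria, namely Trub2, Mrm1, Rpusd4, Rcc1l and Ybey. The highest were Trub2, which modifies mitochondrial RNA by pseudouridylation, and Mrm1, a methyltransferase of the large ribosomal RNA. Trub2 was at 25.5 ± 0.540 CPM with IgG and 194 ± 5.54 with anti-p-UPF1 (SD, n = 3), and Mrm1 at 24.6 ± 1.05 and 172 ± 3.69. The lowest were the helicase Ddx28 (-2.04) and Mtres1 (-1.83). In the assembly list 34.6% of genes were higher over IgG, against 13.0% of the ribosomal proteins and 40.4% of all genes tested. Beyond mitochondrial translation, 82 of 83 cytosolic ribosomal protein genes and their paralogs were lower over IgG, with a median of -2.85. The 76 nuclear-encoded subunits of oxidative phosphorylation (OXPHOS) tested had a median of -2.51, and the 12 mRNAs of the mitochondrial genome had one of -4.71, all of them lower.

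**Figure D4:**
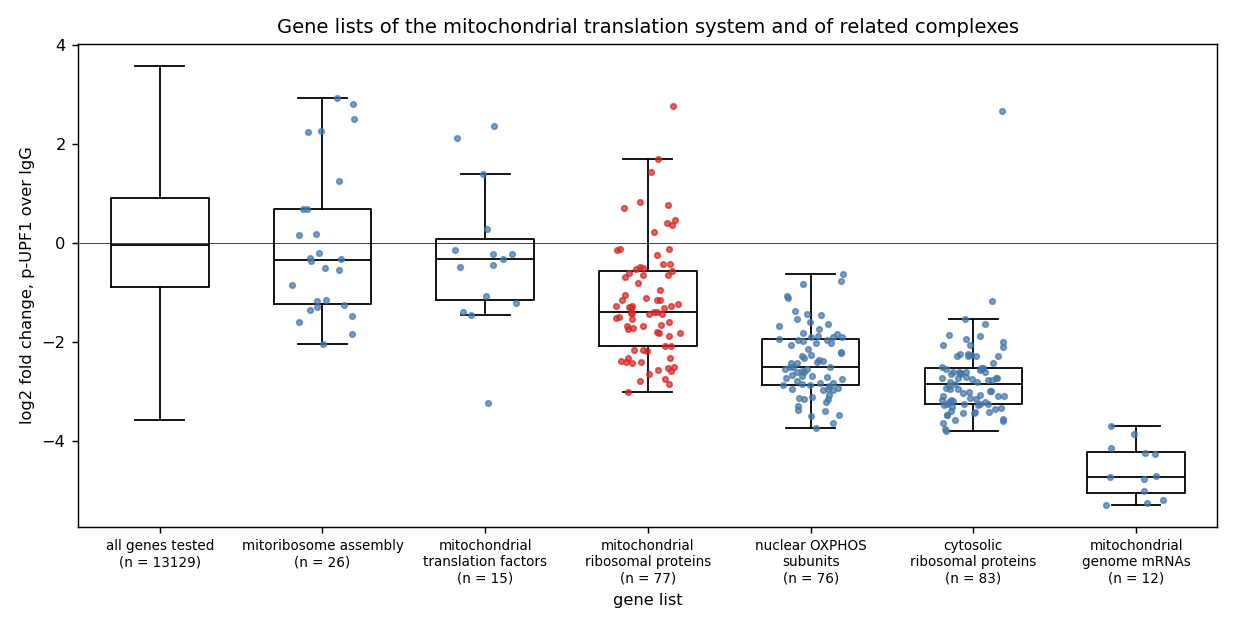
Log2 fold change of p-UPF1 over IgG (y axis) by gene list, with boxes for the median and quartiles, whiskers to the farthest value within 1.5 times the box height, and 1 point per gene except for all genes. The members (red, median -1.39) lie between the translation and assembly lists (medians -0.33 and -0.35) and the OXPHOS, cytosolic ribosomal and mitochondrial genome lists (-2.51, -2.85 and -4.71); scaling to mitochondrially encoded mRNA puts all members above 0.

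Member mRNAs are short. In the representative RefSeq transcripts the median length was 1067 bases against 2999 over the genes tested, the coding sequence 591 against 1401, the 3′ UTR 302 against 1016, and the number of exons 5 against 9. No representative transcript of a member had an exon junction more than 50 bases downstream of the stop codon. Such junctions were rare, in 34 of 11873 genes with a transcript (0.286%), so their absence does not set members apart. An upstream AUG was present in 20 of 77 members (25.97%) and in 48.6% of all genes with a transcript. GENCODE annotated an NMD isoform for 19 of 77 members (24.7%) and for 29.4% of all genes. None of the 10 members higher over IgG had such an isoform, and the 19 members with one had a median log2 fold change over IgG of -1.67, against -1.27 in the 58 without. Over all genes tested with a GENCODE match the order was the other way, with a median of 0.17 in the 3485 with such an isoform, of which 1660 were higher over IgG, and -0.06 in the 8361 without, of which 3319 were higher. Counts were per gene, so isoforms were not separated.

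Members with longer 3′ UTRs tended to be recovered better. The 10 members higher over IgG had a median 3′ UTR of 833 bases and the 65 lower ones one of 259 bases. Across the 77 genes, Pearson's r of log10 3′ UTR length and log2 fold change over IgG was 0.38 (0.34 without the 2 genes farthest from the median length) and Spearman's rho 0.41, where genes share libraries and are not independent replicates. Over all genes r was 0.36. Mrpl17 has the longest 3′ UTR of the members, at 6075 bases, and its -0.12 over IgG lay above the members' median of -1.39. It was not called in the fit over all 9 libraries with default TMM (adjusted P 0.195 in the quasi-likelihood test of edgeR). Single genes departed from the trend in both directions. Mrpl57 has 1920 bases and was among the lowest (-2.85). Mrpl47, with 97 bases, was higher (0.45).

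Within each quartile of 3′ UTR length the members had a lower median than all genes tested. In the shortest quartile, up to 420 bases, 50 members had a median log2 fold change over IgG of -1.47 and all genes one of -0.78. In the quartiles above, medians were -0.50 in 10 members against -0.01, -0.64 in 9 against 0.43, and -1.27 in 8 against 0.39. Where coding sequence and 3′ UTR both lay in the lowest quartile, the order was the other way, with -1.47 in 38 members and -1.66 in all 1009 such genes. Without members, cytosolic ribosomal and OXPHOS genes, the remaining 857 had a median of -1.45. The other 39 members, longer in one or both, had a median of -1.29 against 0.11 for the other 10864 genes. The longest coding sequence of a member was 1329 bases, below the median of 1401 over the genes tested. The sets compared by 3′ UTR quartile and among these longer genes thus differ in coding length too.

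**Figure D5:**
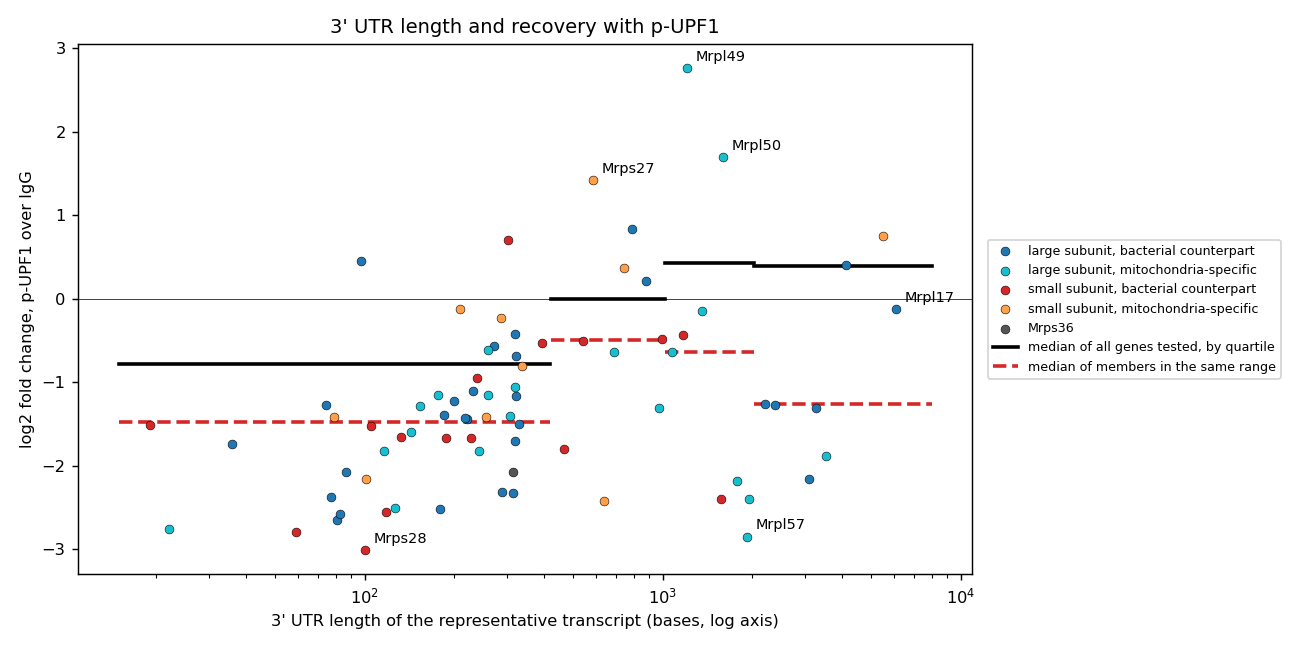
3′ UTR length of the representative transcript (x axis, bases, log scale) and log2 fold change of p-UPF1 over IgG (y axis) for the 77 members, coloured by subunit and origin; black lines give the median of all genes tested in each quartile of 3′ UTR length and red dashed lines that of the members in it. The red line lies below the black one in all 4 quartiles, and Mrpl49, Mrpl50 and Mrps27 stand far above both.

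Some member counts may include reads of overlapping genes or lack reads from shared stretches, since whether strand was used in counting the precipitates is not stated. Exons of 17 members overlap a gene on the opposite strand and those of 3 members a gene on the same strand. Among the 10 higher members this touched Mrpl49 with Syvn1, over 89 bases or 5.16% of its exons, where Syvn1 itself was at 147 CPM with IgG and 481 with anti-p-UPF1. It also touched Mrps25, of whose exons 58.4% overlap Nr2c2 (log2 fold change 1.27 over IgG), Mrpl19, with 22.8% shared with Gcfc2 (1.08), and Mrps27, with 15.8% shared with a gene not tested. Mrps6 shares 18.6% of its exons with Slc5a3 on the same strand, which was lower over IgG (-1.93), and Mrps23 shares 2.13% with Cuedc1 (2.10). Outside the family, exons of Mtif3 (781 bases), Trub2 (344) and Ybey (1396) overlap genes on the opposite strand. Those of Mrm1, Rpusd4 and Rcc1l, which also met both criteria, overlap none there. The part of such reads in these values was not tested. Without any opposite-strand overlap there were 60 members, of which 6 were higher and 52 lower over IgG. Among all genes tested, with or without overlap, 40.4% were higher and 42.2% lower. Mrpl46 and Mrps11 face each other head to head on chromosome 7, 41 bases apart, and both were lower, at -1.82 and -0.95.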

How the data were processed

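RNA of 3 input, 3 IgG and 3 p-UPF1 libraries was sequenced. The authors deposited raw read counts per NCBI Gene ID, not normalised, with 1 column per library. Per the labels, cutadapt, HISAT2 and featureCounts were used with mm10, without versions. The library kit was directional. The study's RNA-seq methods name unstranded alignment, and for the precipitates the strand setting is not given in the sources used here. Reads carry no molecular identifiers, so counting error understates the true error. Columns carry letters and the labels numbers, so a column's name gave its group, and the letter served only as a block in an alternative.

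Identifiers were named through RefSeq on GRCm38 (25275 of 27179 matched). Genes were kept by filterByExpr (minimum count 10, minimum total 15), which kept 99.95% of counts. Counts were scaled by TMM and fitted in edgeR 4.0.16 (R 4.3.3) with glmQLFit and glmQLFTest over all 9 libraries (6 residual degrees of freedom, two-sided, Benjamini-Hochberg over 13129 genes). SEs were derived from the F statistic. In data simulated for p-UPF1 over IgG on 12920 genes, 86% of changes of log2 1 and 97% of log2 2 were recovered. Only 100 and 99 genes were changed by these sizes, both up and down, and 12 calls among the unchanged genes were false. The real libraries had 40.4% of genes called higher and 42.2% lower over IgG, so this recovery need not hold for them. Transcript features came from the RefSeq transcript with the longest coding sequence and from GENCODE M21. Values listed for 3 libraries are in the order A, B, C. DESeq2 1.42.0 and limma 3.58.1 served as alternatives.

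Genes named in the text were the members meeting both criteria, the 8 highest and 8 lowest over IgG, the 4 highest and 4 lowest of IgG over input, the 5 most abundant in input (each at a mean of at least 5 CPM) and 11 fixed by role, with the other mitochondrial translation genes by a like rule. Genes outside it (among them Mrps23, Mrpl18, Mrpl17, Mrps34, Mrps17, Mrpl46 and Mrps11) were named after their values were seen. Members and lists were chosen with earlier results of these data known. RefSeq annotates 6 pseudogenes of the family, which were not analysed here.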

Additional observations from a re-analysis of the deposited data

How the results depend on the processing

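The labels number the replicates and the columns carry letters, so numbers could not be used for pairing. Input and precipitates come from one lysate in the methods, and a replicate block on the letter, chosen after seeing the data, gave 10 members higher and 64 lower over IgG, 8 and 68 over input, 1 and 62 in IgG over input, and medians of -1.39, -1.84 and -0.38. Deviations from group means correlated at 0.028 to 0.11 between libraries of one letter and at -0.077 to 0.017 between others, over 11910 genes. Each library thus correlated best with its own letter, as a hint from the data. Under the block Mrps18b lost its call over IgG and Mrpl47 gained a lower one in IgG over input. TMM assumes that most genes do not differ, and log2 fold changes state a gene's place relative to the others. Scaling to equal mitochondrially encoded mRNA moved the all-gene median over IgG from -0.03 to 4.66. It gave members' medians of 3.30 over IgG, 3.20 over input and -0.041 for IgG over input. The counts under it were chosen after seeing the data: 77 members were higher and 0 lower over IgG, 77 higher and 0 lower over input, 13 higher and 15 lower in IgG than in input, and 69 (89.6%) met both criteria. Of all 13129 genes, 13048 were then higher over input, 6116 were higher and 1093 lower in IgG than in input, and 96.9% met both criteria. Relative to all genes, the members' median over IgG was -1.36 in the fit reported and also -1.36 under that scaling. Scaling shifts all genes of a library alike, so this likeness was fixed in advance and tests nothing.

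Among the other settings, the members' median over IgG was -1.55 with library size alone, -1.53 with upper-quartile factors, -1.48 with an input library as TMM reference and -1.35 without a low-count filter. Over input it was -1.89, -1.91, -1.72 (IgG library as reference), -1.71 (no filter), and -1.80 with DESeq2 size factors or the DESeq2 test. For IgG over input it was -0.27, -0.31, -0.28 (either reference, or only the 2 groups), and -0.30 (no filter). Members higher in IgG than in input numbered 3 with library size alone or either reference, and 2 without a filter or with only the 2 groups; the additions were Mrps9 and Mrps26, of which only Mrps26 was called without a filter and only Mrps9 with the 2 groups.

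Leaving out 1 library at a time gave medians of -1.39 to -1.33 over IgG, -1.87 to -1.81 over input and -0.42 to -0.39 for IgG over input. Members higher and lower numbered 10 to 10 and 62 to 65 over IgG, 8 to 9 and 68 to 68 over input, and 0 to 1 and 58 to 64 in IgG over input, and 1 to 1 met both criteria. The one member higher in IgG than in input, Mrpl9, was not called without p-UPF1 library B, IgG library B or any one of the 3 input libraries.

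Under the mitochondrial scaling every member was higher in p-UPF1, so all lower calls turned. In the other settings, all changes of sign of named genes were in IgG over input and none of those values was called. Mrpl49 (reported -0.09) became 0.024 with library size alone, 0.012 and 0.015 with an input and an IgG library as reference, and 0.015 with only the 2 groups. In the same settings Mrps7 (-0.08) became 0.036, 0.024, 0.027 and 0.027, and 0.0079 without a filter. Mrpl57 (-0.03) became 0.084, 0.073, 0.075 and 0.075 in them, 0.057 without a filter and 0.038 with upper-quartile factors. Mrpl19 (-0.11) became 0.0054 with library size alone. Mrps26 (0.11) ranged from -0.035 (without IgG library A) to 0.17 when 1 library was left out. In these settings, among all members tested, the call over IgG was lost in one or more for Mrps18b, Mrpl45, Mrpl10 and Mrps17 and gained (lower) for Mrpl17 and Mrps34. Over input the call of Mrpl10 was lost and Mrpl47 gained a higher one. Without IgG library A, the value of Mrpl47 over IgG moved from 0.45 to 0.27 and kept its call. With 3 libraries a group, p-UPF1 levels of the lowest members rest on few CPM.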
